A study of Mus musculus with 2 samples.

Results

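Toll-like receptors and Cd180 were examined as 10 genes of the innate sensing system, out of 21938 protein-coding genes of GENCODE vM21 on the reference chromosomes of mm10. The members were named by their symbols, Tlr1 to Tlr9 and Cd180, and all 10 were found. They comprised 6 receptors of the cell surface (Tlr1, Tlr2, Tlr4, Tlr5, Tlr6 and Cd180) and 4 receptors of endosomes (Tlr3, Tlr7, Tlr8 and Tlr9). For each gene, every accessible chromatin peak that touched the gene body or the 10 kb on either side was taken from both peak lists.

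Toll-like receptors are membrane proteins that recognise conserved parts of microbes through a leucine-rich repeat domain and signal through a TIR domain inside the cell. Surface receptors bind lipids and proteins of the microbial envelope, whereas endosomal receptors bind nucleic acids after microbes or dying cells have been taken up. In the spleen, B cells, macrophages and dendritic cells carry different sets of these receptors. Cd180 resembles Tlr4 outside the cell but lacks the TIR domain, and it is best known from B cells.

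The peaks came from 2 scFFPE-ATAC libraries of mouse FFPE spleen, an assay in which nuclei from formalin-fixed paraffin-embedded tissue are tagged with an FFPE-adapted Tn5 transposase and barcoded by split-and-pool ligation. In 1 library the nuclei were prepared without density gradient centrifugation, the step that separates nuclei from debris. Without this step the paper reports weaker enrichment at transcription start sites, more duplicate reads and a smaller share of reads in peaks. It also states that cell types could not be clearly separated in that condition. The other library was prepared in a 50 µL Tn5 reaction system. Both came from young adult C57BL/6J mice whose spleens were fixed in formalin, the methods name both sexes without giving the sex behind each library, and neither label states the reaction volume of the first library or whether the second was purified on a gradient. There was 1 library per condition, so differences between the libraries have no replicate check and were not tested.

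The list without gradient held 25343 peaks and the 50 µL list 89382, with a median fold enrichment of 5.24 and 3.29. Fold enrichment is the signal at the summit of a peak over the local background as the peak caller estimated it. Of peaks over the whole genome, 95.3% of the list without gradient overlapped a 50 µL peak, against 26.3% in the reverse direction. Promoter peaks, defined as peaks within 1 kb of an annotated transcription start site (TSS), were found without gradient at 4 of 8 B cell, 4 of 8 T cell and 2 of 8 myeloid marker genes as well as at 1 of 8 markers of organs other than spleen. In the 50 µL library the numbers were 8 of 8, 8 of 8, 7 of 8 and 2 of 8. Among all protein-coding genes, 43.7% had a promoter peak without gradient and 56.6% in the 50 µL library. Because peaks were called over all nuclei of a library, fewer cells of a type and less accessible chromatin per cell cannot be told apart.

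Peaks away from promoters that both libraries recorded recur below, so their DNA is shown first. For 6 genes with such a peak, the 200 bp around the summit in the 50 µL library are given for its most significant one. The windows of Tlr4, in a 3′ UTR of its RefSeq transcript, and of Tlr6, over the start of Fam114a1, are not shown. Added are the 200 bp before the start of Tlr9, where a peak was called in the 50 µL library alone. All are on the plus strand of GRCm38, read 5′ to 3′, and capitals mark matches to any of 15 short binding sequences searched on both strands. The windows lie at chrX:167315972-167316171 (Tlr7, intron 2), chrX:167233617-167233816 (downstream of Tlr8), chr9:106230165-106230364 (downstream of Tlr9), chr8:45415035-45415234 (upstream of Tlr3), chr5:64922904-64923103 (downstream of Tlr1), chr13:102689695-102689894 (upstream of Cd180) and chr9:106222398-106222597 (Tlr9 promoter).
Tlr7 intron: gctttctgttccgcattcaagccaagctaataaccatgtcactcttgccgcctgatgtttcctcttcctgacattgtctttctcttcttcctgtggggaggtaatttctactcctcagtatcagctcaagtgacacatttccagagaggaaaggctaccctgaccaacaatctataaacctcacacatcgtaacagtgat
Tlr8 downstream: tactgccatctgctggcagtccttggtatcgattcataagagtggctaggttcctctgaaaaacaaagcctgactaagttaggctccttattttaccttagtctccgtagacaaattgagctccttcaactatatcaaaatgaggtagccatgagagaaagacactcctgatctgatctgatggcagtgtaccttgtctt
Tlr9 downstream: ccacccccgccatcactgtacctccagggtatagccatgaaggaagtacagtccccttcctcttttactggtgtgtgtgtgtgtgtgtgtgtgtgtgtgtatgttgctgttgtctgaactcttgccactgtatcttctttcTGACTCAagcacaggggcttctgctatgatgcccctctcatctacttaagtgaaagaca
Tlr3 upstream: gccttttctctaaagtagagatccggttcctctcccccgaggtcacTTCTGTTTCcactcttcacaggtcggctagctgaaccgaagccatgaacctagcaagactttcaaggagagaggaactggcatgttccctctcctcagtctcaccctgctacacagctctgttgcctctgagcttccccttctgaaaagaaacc
Tlr1 downstream: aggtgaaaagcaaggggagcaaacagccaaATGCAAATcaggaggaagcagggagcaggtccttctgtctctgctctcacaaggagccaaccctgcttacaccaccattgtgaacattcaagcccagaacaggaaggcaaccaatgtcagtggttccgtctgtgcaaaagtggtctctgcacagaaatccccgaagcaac
Cd180 upstream: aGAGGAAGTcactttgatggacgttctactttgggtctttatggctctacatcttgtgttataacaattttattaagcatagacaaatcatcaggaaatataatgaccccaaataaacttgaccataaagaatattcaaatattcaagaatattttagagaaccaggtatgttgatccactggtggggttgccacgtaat
Tlr9 promoter: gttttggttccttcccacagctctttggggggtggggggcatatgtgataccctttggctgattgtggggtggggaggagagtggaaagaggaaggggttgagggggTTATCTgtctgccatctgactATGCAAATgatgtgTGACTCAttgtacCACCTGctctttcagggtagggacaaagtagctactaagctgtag

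The Tlr9 promoter held 4 of the sequences within the 200 bp before its start. From left to right these were the reverse strand of a GATA factor site, searched as AGATAA, and the reverse strand of the octamer bound by POU2F factors, searched as ATTTGCAT. They were followed by an AP-1 match, searched as TGANTCA. The last was an E-box on the reverse strand, searched as CAGGTG. Among all protein-coding genes, the same stretch held the GATA sequence in 6.84%, the octamer in 1.22%, the AP-1 sequence in 4.81% and the E-box in 14.0%. The Tlr1 window held an octamer and the Tlr9 downstream window an AP-1 sequence, which occurred in 1.53% and 5.39% of all 50 µL peak windows. In the Tlr3 window the match was to the core of an interferon-response element (GAAANNGAA, 7.63% of all windows), and in the Cd180 window to the sequence of PU.1 (GAGGAAGT, 3.8%), the myeloid and B cell factor encoded by Spi1. None of the 15 sequences was found in the Tlr7 and Tlr8 windows. A match describes the letters of a window and is not evidence of binding.

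Most of the 10 genes had accessible chromatin in or near them in both libraries. Without gradient, 9 of 10 members had at least 1 peak in their window (90.0%, exact 95% interval 55.5 to 99.7%), beside 61.2% of all protein-coding genes, and Tlr5 was the exception. In the 50 µL library all 10 members had a peak (100.0%, interval 69.2 to 100.0%), beside 73.0% of all protein-coding genes. These intervals cover counting error only, and the peak lists hold no read or cell numbers.

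Promoter peaks were counted for each receptor class. Without gradient, 5 of 10 members had a promoter peak (50.0%, interval 18.7 to 81.3%), beside 43.7% of all genes. These were the surface receptors Tlr1, Tlr2, Tlr4 and Tlr6 and the endosomal receptor Tlr3, or 4 of 6 surface and 1 of 4 endosomal receptors. In the 50 µL library Tlr7, Tlr8 and Tlr9 joined them, which made 8 of 10 members (80.0%, interval 44.4 to 97.5%), beside 56.6% of all genes, with 4 of 6 surface and 4 of 4 endosomal receptors. Tlr5 and Cd180 had no promoter peak in either list. The class intervals overlapped widely (22.3 to 95.7% for surface and 0.631 to 80.6% for endosomal receptors without gradient), and the classes were not tested.

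The promoters of this family are poor in CpG dinucleotides. CpG observed over expected in 500 bp on each side of the gene's 5′ end ran between 0.12 for Tlr3 and 0.66 for Tlr6, with a median of 0.26 over the members and 0.55 over all genes, and 8 members lay under 0.4. Of those 8, 3 had a promoter peak without gradient (37.5%, interval 8.52 to 75.5%), beside 13.3% of all genes with such CpG-poor promoters. In the 50 µL library 6 of the 8 had one (75.0%, interval 34.9 to 96.8%), beside 24.7% of genes with CpG-poor promoters. Both intervals for the members were wide, and the interval without gradient included its background. The members were chosen with earlier results of these data known, and the intervals cover counting error only. Neither interval therefore tests a difference from the background.

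When the 50 µL list was reduced to its 25343 most significant peaks, the length of the other list, 6 of 10 members still had a peak in the window and 3 of 10 a promoter peak (Tlr4, Tlr6 and Tlr9), beside 61.9% and 45.2% of all genes. At this length the 50 µL list reached fewer members than the list without gradient, by either count, and Tlr9 was the endosomal receptor that kept a promoter peak. Of the 8 members with CpG-poor promoters, 2 had a promoter peak at this length (25.0%, interval 3.19 to 65.1%). The share over all genes with CpG-poor promoters was not computed for it.

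In all, the windows held 19 peaks covering 6729 bp without gradient and 56 peaks covering 24062 bp in the 50 µL library. Of the 19, all overlapped a 50 µL peak (100.0%, interval 82.4 to 100.0%), beside 95.3% of all peaks of that list. In the reverse direction 19 of the 56 overlapped a peak of the library without gradient (33.9%, interval 21.8 to 47.8%), beside 26.3% of all peaks. The shared part of the 19 was 47.4% when the overlap had to be reciprocal over 50% of both peaks, and 42.1% against the 50 µL list of equal length. Median −log10 q in the 50 µL library was 21.1 for the shared peaks and 9.81 for the others, beside 13.1 over all peaks of that list. The same split over all peaks was not computed. Summits lay in introns for 6 of 19 peaks without gradient and for 22 of 56 in the 50 µL library, upstream of the gene for 8 and 16, downstream for 3 and 12, and in a 5′ UTR for 2 and 4. The remaining 50 µL summits lay in the 3′ UTR of Tlr6 and in coding sequence of Tlr9, 1 each. Shares of these summit positions over all peaks were not computed.

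**Figure D1:**
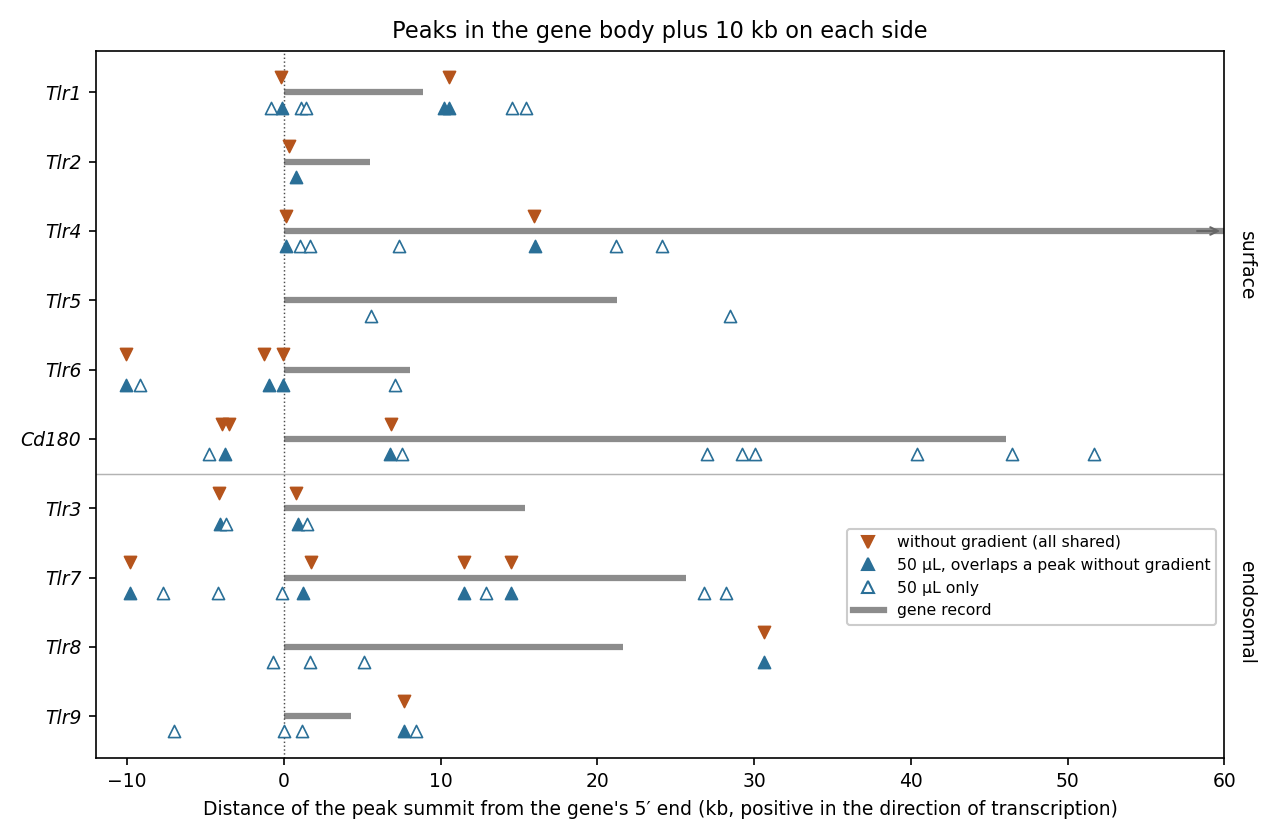
Positions of peak summits around each gene, in kb from the gene's 5′ end, with triangles pointing down for the library without gradient and up for the 50 µL library, filled where the peak overlaps one of the other list. Grey bars are gene records (that of Tlr4 runs on past the right edge), and all 19 peaks without gradient are filled, beside 95.3% of all peaks of that list.

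Among the surface receptors, Tlr4, which binds lipopolysaccharide together with MD-2, had the single most enriched peak of the family in both libraries. The gene record lies on chromosome 4 at 66827584 to 66930284 (plus strand), much longer than the principal transcript. The peak over its start had a fold enrichment of 6.21 without gradient and 4.24 in the 50 µL library, at the 73.4th and 77.1st percentiles of the lists. A peak at chr4:66843118-66843766 in the 50 µL list, with its summit 16030 bp from the 5′ end, reached a fold enrichment of 6.43 without gradient and 6.44 in the 50 µL library. That value stood at the 77.3rd percentile of the list without gradient and the 97.1st of the 50 µL list, and it was the highest of any member in both. GENCODE places this summit in an intron of a longer transcript past the end of the principal one, whereas the RefSeq transcript has its 3′ UTR there. The other 5 peaks of Tlr4 were found in the 50 µL library alone, with fold enrichments between 2.09 and 2.89.

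Tlr1, Tlr2 and Tlr6 act as pairs, in which Tlr2 with Tlr1 recognises triacylated and Tlr2 with Tlr6 diacylated lipopeptides. Tlr2 (chromosome 3, 83836272 to 83841767, minus strand) had a single peak in each library, both near its start. Its fold enrichment was 5.64 without gradient, at the 61.0th percentile, and 2.38 in the 50 µL library, at the 9.75th percentile. The peaks overlapped by 187 bp while their summits lay 444 bp apart, in intron 1 without gradient and in exon 2 in the 50 µL library. Tlr2 was thus the member with the fewest 50 µL peaks, and its window held fewer peaks than the median of 3.0 over all genes.

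Tlr1 (chromosome 5, 64924679 to 64933563, minus strand) had 2 peaks without gradient and 8 in the 50 µL library. The start was covered in both, with a fold enrichment of 4.65 without gradient and 2.92 in the 50 µL library and summits 56 bp apart. A peak without gradient of 581 bp lay past the 3′ end of the gene, with its summit 1679 bp downstream and a fold enrichment of 4.19. It was resolved into 2 peaks in the 50 µL library, of which the stronger (3.45, −log10 q 27.3) had its summit 4 bp away and is the Tlr1 window printed above. The neighbouring Tlr6 (64952031 to 64960097, minus strand) had 3 peaks without gradient and 5 in the 50 µL library. At its start the fold enrichment was 4.58 without gradient and 2.98 in the 50 µL library. A second promoter peak further upstream had 3.75 without gradient and 2.76 in the 50 µL library. The remaining shared peak of the Tlr6 window (4.67 without gradient and 2.56 in the 50 µL library) lay over the start of Fam114a1, a gene on the opposite strand, and also at the start of predicted RefSeq transcripts of Tlr6.

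Tlr5, the receptor for bacterial flagellin (chromosome 1, 182954788 to 182976044, plus strand), was the member with no peak in 1 of the lists. It had 0 peaks without gradient and 2 in the 50 µL library. These lay in intron 1, 5576 bp from the 5′ end (fold enrichment 3.49), and 7225 bp past the 3′ end (3.40), both near the middle of the 50 µL list at the 58.0th and 55.0th percentiles. Neither reached a TSS, the nearer lying 5248 bp from one of GENCODE and 4009 bp from one of RefSeq.

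Cd180 forms a complex with MD-1, the product of Ly86, and regulates responses of B cells. Its gene record lies on chromosome 13 at 102693558 to 102739629 (plus strand). The record with 10 kb on each side held 3 peaks without gradient and 10 in the 50 µL library, with none at the promoter. These numbers were higher than in 80.3% and 90.1% of all genes, whose windows differ in length. Without gradient, 2 peaks lay upstream, with summits 3932 and 3507 bp before the 5′ end and fold enrichments of 3.23 and 3.65, among the lowest of that list (1.9th and 6.95th percentiles). A single 50 µL peak of 2.51 spanned both, and its summit is the centre of the Cd180 window printed above. The PU.1 sequence at 102689696 fell inside the summit windows of both libraries. The third shared peak lay in intron 1, 6841 bp from the 5′ end, with 3.98 without gradient and 2.55 in the 50 µL library. Of the 50 µL peaks alone, 3 at the far end lay within the record of Mast4, a kinase gene on the opposite strand, including the strongest of the window (4.04, 5587 bp past the end of Cd180).

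**Figure D2:**
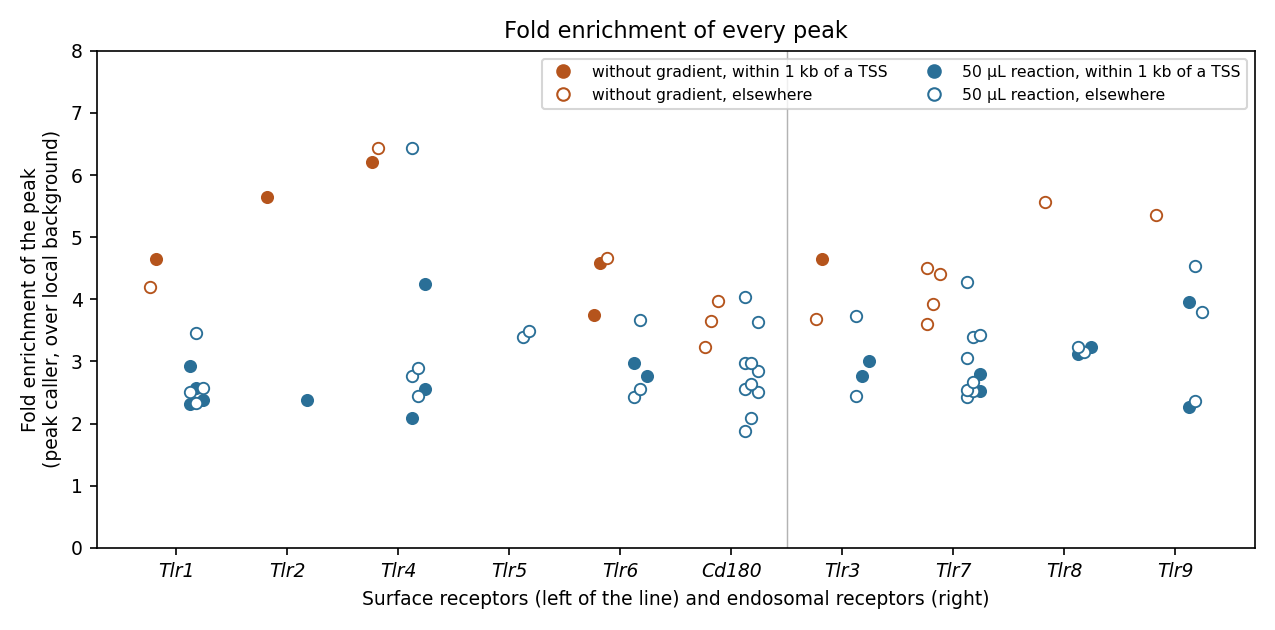
Fold enrichment of every peak by gene, with the library without gradient to the left of the 50 µL library and filled points for peaks within 1 kb of a TSS. Tlr4 holds the highest value in both libraries (6.43 and 6.44), and Tlr5 has no point without gradient.

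Promoter peaks were 5 of 11 surface and 1 of 8 endosomal peaks without gradient, where 40.0% of all peaks lay within 1 kb of a TSS of a protein-coding gene. They were 10 of 33 surface and 8 of 23 endosomal peaks in the 50 µL library, beside 22.3% of all peaks. The 2 measures differ, as member peaks were counted only at TSSs of the member itself. Peaks of the Tlr6 window near the start of Fam114a1 were thus left out, whereas the shares over all peaks took TSSs of any protein-coding gene. Tlr7, a sensor of single-stranded RNA (chromosome X, 167304929 to 167330558, minus strand), had 4 peaks without gradient and 10 in the 50 µL library, more than 91.1% and 90.1% of all genes. Its 4 shared peaks lay 9834 bp upstream and 1709, 11488 and 14465 bp into the gene by their summits without gradient, the last 3 in intron 2. The one deepest in the intron had the highest fold enrichment of the 4, with 4.51 without gradient and 4.28 in the 50 µL library. Its summits in the 2 libraries were 21 bp apart, inside the Tlr7 window printed above. Its −log10 q of 47.0 in the 50 µL library was the highest of all member peaks. Without gradient its −log10 q was 13.5, below the 14.0 of the peak 1709 bp into the gene. Over the Tlr7 start a peak was called in the 50 µL library alone, with a fold enrichment of 2.53. The peak nearest to the start without gradient ended 1404 bp from a TSS, and its 50 µL counterpart 912 bp, so the same region counted as promoter in the 50 µL list only.

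Tlr8 adjoins Tlr7 on chromosome X (167242696 to 167264329, minus strand) and is an RNA sensor in humans. Its single peak without gradient lay 8978 bp past the 3′ end, with a fold enrichment of 5.57. The 50 µL library had a peak at the same place with 3.15 and a summit 1 bp away. The 50 µL library alone added 3 peaks in or before the gene, with summits 675 bp upstream and 1689 and 5102 bp into it, of 3.12, 3.23 and 3.23. The peak at 1689 bp counted as promoter with its edge 995 bp from a TSS, and the upstream one lay 615 bp from a TSS. Tlr8 thus had no promoter peak at GENCODE TSSs when the promoter was narrowed to 500 bp. By RefSeq, the peak at 5102 bp lay 253 bp from a TSS.

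Tlr9, the receptor for unmethylated CpG DNA and prominent in B cells and plasmacytoid dendritic cells, lies on chromosome 9 (106222598 to 106226883, plus strand). The library without gradient had 1 peak in its window, 3383 bp past the 3′ end, with a fold enrichment of 5.36. In the 50 µL library the same peak had 4.54 (−log10 q 38.8, 82.3rd percentile), and the summits were 1 bp apart. Over the start of Tlr9 a peak was called in the 50 µL library alone, with a fold enrichment of 3.95 and a −log10 q of 36.0, the highest −log10 q of any promoter peak among the members. Its summit lay 13 bp into the gene, next to the promoter sequence printed above. The nearest promoters of other genes to the downstream peak were those of Alas1, 6673 bp from it without gradient and 6520 bp in the 50 µL library.

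Tlr3, the receptor for double-stranded RNA (chromosome 8, 45395665 to 45411080, minus strand), was the endosomal member with a promoter peak in both libraries. That peak had a fold enrichment of 4.65 without gradient and 2.76 in the 50 µL library, and it also lay beside the start of Gm45542, an antisense transcript. The second shared peak, 4113 bp upstream without gradient, had 3.68 without gradient and 3.73 in the 50 µL library. This corresponded to the 7.54th percentile of the list without gradient and the 65.4th percentile of the 50 µL list.

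**Figure D3:**
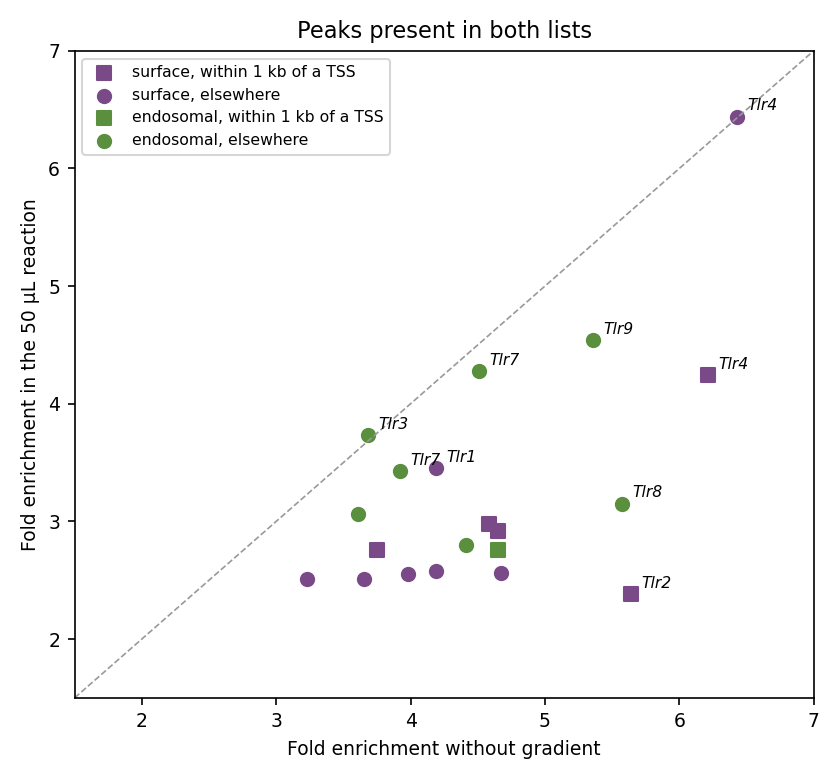
Fold enrichment of the member peaks present in both lists, without gradient on the horizontal and 50 µL on the vertical axis, 1 point for each overlapping pair. Only 2 pairs reach the dashed line of equal values, the Tlr4 peak (6.43 and 6.44) and the upstream Tlr3 peak (3.68 and 3.73), and values of the 2 lists are not on a common scale.

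Peaks per 100 kb of window were set side by side for the classes. Without gradient there were 3.54 for surface receptors (11 peaks in 310.9 kb) and 5.44 for endosomal receptors (8 peaks in 147.0 kb), beside a median of 1.94 and a mean of 2.98 over the windows of all protein-coding genes, taken gene by gene. In the 50 µL library there were 10.6 for surface receptors (33 peaks) and 15.6 for endosomal receptors (23 peaks), beside a median of 6.59 and a mean of 7.71. Much of this gap rested on the long record of Tlr4. Without Tlr4 the values were 4.78 for surface and 5.44 for endosomal receptors in the library without gradient, and 13.8 and 15.6 in the 50 µL library. With windows drawn around principal transcripts the order turned round without gradient (5.77 for surface and 5.46 for endosomal receptors) and was 14.2 for surface and 15.7 for endosomal receptors in the 50 µL library. Median fold enrichment was 4.58 for surface and 4.46 for endosomal receptors without gradient, and 2.64 and 3.06 in the 50 µL library. The order of the classes without gradient thus depended on how the windows were drawn.

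**Figure D4:**
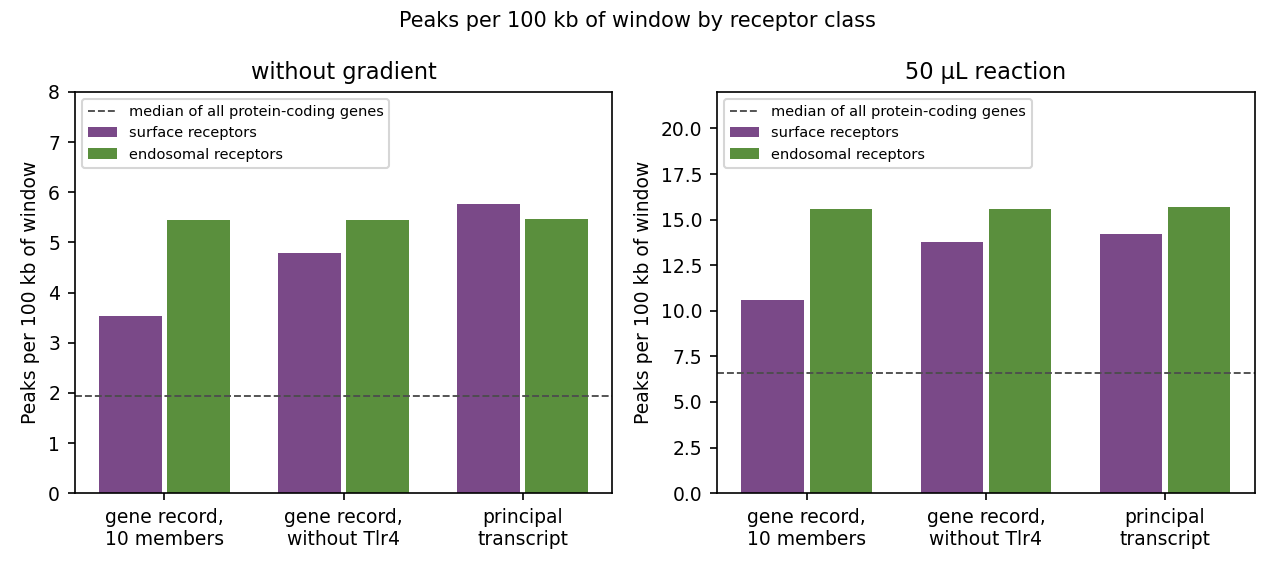
Peaks per 100 kb of merged window for surface (left bars) and endosomal receptors (right bars), with the library without gradient on the left, and the dashed line at the median of all protein-coding genes. The gap of 3.54 against 5.44 without gradient closes to 5.77 against 5.46 when windows follow principal transcripts.

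Windows of 200 bp around the summits of member peaks were also searched for the 15 sequences, each beside its share among all peaks of the same list. At least 1 of them was present in 12 of 19 windows without gradient (63.2%, beside 54.9% of all peaks) and in 33 of 56 windows in the 50 µL library (58.9%, beside 49.7%). In windows of 100 bp these shares were 21.1% beside 31.4% without gradient and 30.4% beside 27.6% in the 50 µL library. The PU.1 sequence occurred in 2 of 19 windows without gradient (10.5%, beside 5.04% of all peaks) and in 7 of 56 in the 50 µL library (12.5%, beside 3.8%), at Tlr1, Tlr3, Tlr4, Tlr6, Tlr9 and Cd180. At Tlr1, Tlr4 and Tlr9 it lay in the window of the peak over the start of the gene. In windows of 100 bp it occurred in 1 of 19 (5.26%, beside 2.32%) without gradient and 1 of 56 (1.79%, beside 1.63%) in the 50 µL library. STAT sequences (TTCNNNGAA) occurred in 1 of 19 and 10 of 56 windows (5.26% and 17.9%, beside 5.95% and 5.5%). With 100 bp they were in 0 of 19 without gradient and 4 of 56 in the 50 µL library (7.14%, beside 2.57%). E-boxes occurred in 3 of 19 and 10 of 56 (15.8% and 17.9%, beside 15.9% and 13.1%). With 100 bp they were in 0 of 19 without gradient (beside 8.21%) and 8 of 56 in the 50 µL library (14.3%, beside 6.47%). RUNX sequences (TGTGGTT) occurred in 3 of 19 windows without gradient and 4 of 56 in the 50 µL library (15.8% and 7.14%, beside 6.23% in each list). Octamers occurred in 2 of 19 and 3 of 56 (10.5% and 5.36%, beside 1.76% and 1.53%). The octamer sites at Tlr1 and Tlr7 were the same in both libraries. With 100 bp no member window held a RUNX sequence or an octamer. GATA sequences occurred in 0 of 19 and 2 of 56 (3.57%), beside 6.78% and 9.72%. No member window in either library held the NF-κB (GGANTTTCC), EBF1 (CCCNNGGGA) or ETS core (CCGGAAGT) sequence, which were in 0.817%, 4.04% and 2.75% of all peaks without gradient and in 0.648%, 2.72% and 0.918% in the 50 µL library. The C/EBP (TTGCGCAA) and CREB (TGACGTCA) sequences were also absent from the member windows. They were in 0.138% and 1.12% of all peaks without gradient and in 0.0504% and 0.393% in the 50 µL library. No matches of different sequences overlapped one another in the member windows. Median GC content of the windows was 46.5% for the members and 51.5% for all peaks without gradient, and 43.8% and 46.5% in the 50 µL library.

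Promoter peaks were also counted for genes that work with these receptors. Of 31 partners, chaperones, adaptors, kinases, ubiquitin ligases and inhibitors, 25 had a promoter peak without gradient (80.6%, interval 62.5 to 92.5%) and 31 in the 50 µL library (100.0%, interval 88.8 to 100.0%), beside the 43.7% and 56.6% of all genes given above. With the 50 µL list of equal length the count was 25 of 31 there too. Only 8 of the 31 had a CpG-poor promoter, against 8 of the 10 members and 8785 of all 21938 genes. The part of promoter composition in these promoter peak counts was not tested. The 6 genes without a promoter peak, in the library without gradient and in the 50 µL list of equal length alike, were Cd14, Lbp, Ticam2, Pik3ap1, Traf3 and Tab2, named after their values were seen.

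Of the surface partners, 3 of 5 had a promoter peak without gradient and 5 of 5 in the 50 µL library. Ly86, whose product pairs with Cd180, had a fold enrichment of 3.98 without gradient and 4.55 in the 50 µL library (−log10 q 52.6), in contrast to the Cd180 promoter, where no peak was called. Ly96, which encodes the MD-2 partner of Tlr4, had 4.62 without gradient and 4.06 in the 50 µL library, and the scavenger receptor gene Cd36 had 3.58 and 3.32 in the same order. All 4 trafficking genes had promoter peaks in both libraries. Unc93b1, which carries the nucleic acid sensors to endosomes, had 5.38 without gradient and 4.72 in the 50 µL library, the chaperone gene Cnpy3 had 6.83 and 4.70, and Hsp90b1, which encodes the chaperone gp96, had 3.91 and 3.39.

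Adaptor genes had promoter peaks in 4 of 6 cases without gradient and 6 of 6 in the 50 µL library. Myd88, the adaptor of nearly all Toll-like receptors, had 7.53 without gradient and 6.01 in the 50 µL library, Sarm1, which encodes another protein with a TIR domain, had 8.65 and 9.15, and Tirap, the adaptor that brings Myd88 to Tlr2 and Tlr4, had 5.10 and 4.24. Kinases and ubiquitin ligases had them in 11 of 13 and 13 of 13 cases. Among these Irak2 had 8.26 without gradient and 5.71 in the 50 µL library, Irak4, the first kinase of the Myd88 complex, had 6.67 and 5.83, and Map3k7, which encodes TAK1, had 5.02 and 5.79. The inhibitors were covered in 3 of 3 cases in both libraries. Tollip, whose product restrains Irak kinases, had 8.27 without gradient and 6.76 in the 50 µL library, the gene of the inhibitory receptor Sigirr 4.55 and 4.49, and Tnfaip3, which encodes A20, 4.18 and 3.68. The other mouse receptors Tlr11, Tlr12 and Tlr13 had a promoter peak in 0 of 3 cases without gradient (interval 0 to 70.8%) and 1 of 3 in the 50 µL library, at Tlr12 with a fold enrichment of 4.81.

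**Figure D5:**
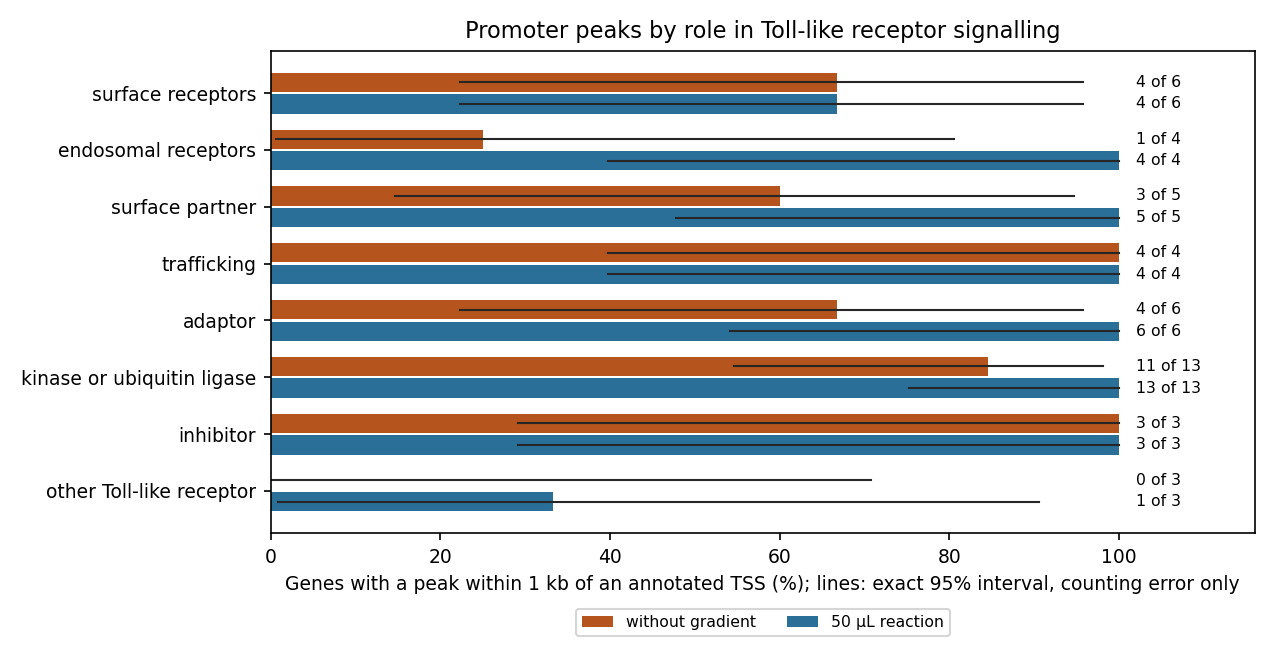
Share of genes with a promoter peak by role, with the library without gradient above the 50 µL library, counts at the right and lines for exact 95% intervals of counting error. Endosomal receptors stand at 1 of 4 without gradient and 4 of 4 in the 50 µL library, while trafficking genes and inhibitors are complete in both.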

How the data were processed

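Peaks of 2 mouse FFPE spleen scFFPE-ATAC libraries on mm10 were used, 1 library per condition. Per the methods, alignment by the authors used BWA mem, followed by sorting (samtools), duplicate removal (an in-house script), peak calling without model or shift (MACS2) and removal of blacklisted regions (bedtools). The shift of 0 may place summits some bases from the Tn5 insertions. The submitters' processing notes name BWA, SAMtools, hg38 and mm10. The deposited lists give per peak a display score, which was not used, the fold enrichment (a ratio over local background), −log10 p and −log10 q from the peak caller, and the offset of the summit. Fold enrichment and −log10 q depend on depth, and the lists hold neither reads nor cells, so values were ranked within a list. The sex of the mice and the tissue block behind each library are not given separately in the sources used here.

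Genes were taken from GENCODE vM21, and RefSeq transcripts, UTRs and bases from GRCm38.p6, the assembly of mm10. Windows were the gene record plus 10 kb on each side, merged by class for peaks per 100 kb. Promoter peaks of a gene lay within 1 kb of any of its annotated TSSs, and peaks were shared when they overlapped by at least 1 bp. All 10 members are described; in each pathway role the 3 genes with the most significant 50 µL promoter peak are named, besides any gene with a promoter peak in a role where the others had none, and neighbours whose promoter lies in a window. The members, gene lists and sequences were chosen with earlier results of these data known. No test was made. Shares have exact (Clopper-Pearson) 95% intervals. Alternatives were stricter peaks (fold enrichment from 4 up, or −log10 q over 5), other windows and promoter widths, summits only, equal list lengths, reciprocal overlap, other motif windows, RefSeq TSSs, principal transcripts and leaving out Tlr4, the last 3 chosen after seeing the data. Counting and motif search were tested on simulated data. Python 3.11.15, numpy 2.4.6, pandas 2.3.3, scipy 1.17.1, pysam 0.24.0 and matplotlib 3.10.9 were used.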

Additional observations from a re-analysis of the deposited data

How the results depend on the processing

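Across the results that summarise the members, 60 values under an alternative stayed within their margin, 21 moved and 1 turned round. The margin was a factor of 1.5 for counts and ratios and the exact interval for shares. Some values could not change, such as endosomal peak counts when Tlr4, a surface receptor, was left out. The tally is therefore a list of outcomes and no measure of robustness. The turn was the ratio of surface to endosomal peaks per 100 kb without gradient, 0.651 with gene records and 1.06 with principal transcripts, a window chosen after seeing the data. A fold enrichment of at least 4 left 4 members with a peak and 1 with a promoter peak (Tlr4) in the 50 µL library. Without gradient it left 8 members with a peak and 5 with a promoter peak. Of peaks, it left 7 surface and 5 endosomal ones without gradient, and 3 surface and 2 endosomal ones in the 50 µL library. Of the 31 pathway genes, 22 kept a promoter peak without gradient and 20 in the 50 µL library. Shares over all genes were not computed at this cut. Member peaks at this cut were 12 of 19 without gradient, beside 85.2% of all peaks, and 5 of 56 in the 50 µL library, beside 27.6%. Fewer member peaks than peaks at large thus reached it in both lists. With a 50 µL list of equal length, 6 members kept a peak and 3 a promoter peak, 7 surface and 6 endosomal peaks remained, and the shared part was 42.1% of the 19 peaks without gradient and 61.5% of the 13 remaining 50 µL peaks. Flanks of 50 kb gave 21 surface and 17 endosomal peaks without gradient and 70 surface and 61 endosomal peaks in the 50 µL library. These windows are larger, and the values per 100 kb stayed within the margin. They were 2.95 for surface and 4.17 for endosomal receptors without gradient, and 9.85 and 15.0 in the 50 µL library. A reciprocal overlap of 50% reduced the shared part to 47.4% without gradient and 16.1% in the 50 µL library. Motif windows of 100 bp held any sequence for 4 peaks without gradient and 17 in the 50 µL library. Counts of members with a promoter peak were the same with RefSeq TSSs and with the 5′ end alone.

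With 1 library per condition, no value here has an error between replicates. Read and cell numbers are not in the peak lists, and the absence of a peak from a list does not show closed chromatin. Fold enrichments of the 2 lists are not on a common scale. No paired analysis was possible because each condition had 1 library.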
